A study of Homo sapiens with 30 samples.

Results

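This account describes 35 genes of mitosis and the spindle in LX2 cells, a human hepatic stellate line with the activated, matrix-producing form that these cells take on in fibrosis. The genes were taken by symbol from a fixed list, all 35 were found among the 61597 genes of the deposited table, and all 35 passed the filter on low values that left 15137 genes for testing (5 or more libraries at 1 CPM, reads scaled to a library sum of 1000000). LX2 cells received either no fatty acid (Veh), oleic acid (OLA, 18 carbons, 1 double bond, ω9) or docosahexaenoic acid (DHA, 22 carbons, 6 double bonds, ω3). Both fatty acids were used at 50 µM with albumin at 20 µM, and every culture was then kept in medium with 1% serum with no addition (Veh) or with the growth factor betacellulin (BTC), a ligand of ErbB receptors, at 20 ng/ml for 72 h. The labels are not uniform on how long the fatty acid was present. They give 2 cycles of 48 h, 96 h in another protocol sentence and 72 h in the treatment label. The labels leave unstated whether cultures without fatty acid received albumin. The 30 libraries form 6 groups of 5 (Veh+Veh, Veh+BTC, OLA+Veh, OLA+BTC, DHA+Veh and DHA+BTC), with 1 library of every group in each of experiments 1 to 5, so the experiment pairs the groups. All cultures are of 1 cell line. The labels do not tell whether the experiments were separate passages, and the p-values therefore reflect only how much these cultures varied.

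Cells enter mitosis when cyclins A and B activate the kinase CDK1, and the polo-like and aurora kinases then drive spindle assembly, chromosome alignment and cytokinesis. Kinetochore proteins and mitotic kinesins couple chromosomes to microtubules, the spindle checkpoint holds anaphase until every chromosome is attached, and the anaphase-promoting complex ends mitosis by marking cyclins for destruction. Most of these genes are transcribed mainly in cells that pass through the late cell cycle, so that their RNA in a culture is widely used as a measure of its cycling fraction, and dividing stellate cells are a feature of the injured liver. In RNA from whole cultures, fewer cycling cells and less RNA per cell cannot be told apart.

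Of the 35 genes, 30 matched a promoter in the RefSeq table (GRCh38.p14), and 6 promoters are shown because the genes stand for the groups described here: TOP2A, MKI67 and KIF4A were among the genes lowest after DHA, CCNB2 differed between the fatty acids, and CDC20 and PLK1 had an order of the experiments unlike that of most other members. Each stretch is the 160 bases before the annotated start, 5′ to 3′ on the gene's strand. Capitals mark every CHR core (cell cycle genes homology region, TTTGAA or TTCAAA on the other strand) and every CCAAT box (CCAAT or ATTGG).
TOP2A, chr17:40417897-40418056, minus strand: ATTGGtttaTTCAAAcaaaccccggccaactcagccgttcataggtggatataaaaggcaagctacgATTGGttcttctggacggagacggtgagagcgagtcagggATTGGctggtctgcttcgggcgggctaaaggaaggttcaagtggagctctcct
MKI67, chr10:128126424-128126583, minus strand: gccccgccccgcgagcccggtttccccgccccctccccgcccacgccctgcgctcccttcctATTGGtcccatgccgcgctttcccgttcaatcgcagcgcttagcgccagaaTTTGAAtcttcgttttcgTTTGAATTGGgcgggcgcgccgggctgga
KIF4A, chrX:70289944-70290103, plus strand: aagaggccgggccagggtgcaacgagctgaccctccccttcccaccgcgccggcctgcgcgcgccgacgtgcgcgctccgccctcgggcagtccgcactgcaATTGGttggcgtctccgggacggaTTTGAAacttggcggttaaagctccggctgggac
CCNB2, chr15:59104986-59105145, plus strand: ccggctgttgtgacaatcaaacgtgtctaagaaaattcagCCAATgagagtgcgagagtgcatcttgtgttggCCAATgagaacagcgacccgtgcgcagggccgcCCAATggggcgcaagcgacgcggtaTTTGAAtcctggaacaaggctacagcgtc
CDC20, chr1:43358821-43358980, plus strand: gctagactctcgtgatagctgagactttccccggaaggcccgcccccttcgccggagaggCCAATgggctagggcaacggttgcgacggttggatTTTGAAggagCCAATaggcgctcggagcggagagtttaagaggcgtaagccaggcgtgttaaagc
PLK1, chr16:23678729-23678888, plus strand: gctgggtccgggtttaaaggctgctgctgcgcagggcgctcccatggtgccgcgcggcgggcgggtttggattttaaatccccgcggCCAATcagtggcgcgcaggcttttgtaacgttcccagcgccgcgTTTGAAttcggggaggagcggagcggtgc

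All 6 stretches held both motifs, and in MKI67 the CHR core nearest the start shares 1 base with a CCAAT box. The 6 do not stand for all members in this. Of other genes lowest after DHA, CENPE held neither motif in the 250 bases before the start and ANLN held no CCAAT box. Over the 250 bases before the start, on both strands, the CHR core was present in 18 of the 30 matched members (60%), against 11.8% of the 10860 tested genes with a promoter in the table and 16.05% of all 27305 genes there. The CCAAT box was present in 23 of the 30 members (76.7%), against 41.2% of the tested genes and 37% of all. Both occurred together in 16 of the 30 members (53.3%), against 4.64% of the tested genes. The core nearest the start began within 50 bases of it in 12 of the 18 members, with a median of 29 bases. Mitotic genes outside the list of 35 held the CHR core in 19 of 47 matched promoters (40.4%) and the CCAAT box in 35 of 47 (74.5%). Genes of DNA replication, which are induced earlier in the cycle, held the CHR core in 2 of 31 promoters (6.45%) and the CCAAT box in 23 of 31 (74.2%). These are letter matches and not sites shown to be bound.

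The mitotic genes were lower after DHA. Averaged over the presence of BTC, 19 of the 35 genes were lower after DHA than after vehicle and none was higher, by limma at an adjusted p under 0.05 over all 15137 genes. Among all tested genes, 10.7% were called and 8.38% were called lower. The difference was negative for all 35 genes, with a median of -0.61 on the log2(CPM + 1) scale beside -0.13 over all tested genes. TOP2A, DLGAP5, ANLN and CENPE had the lowest fitted values, and KIF4A, TPX2, MKI67 and BIRC5 were among the genes with the smallest p. Against oleic acid the same DHA libraries were lower for 25 of the 35 genes, where 11.4% of all tested genes were called and 8.96% called lower, with a median of -0.70 beside -0.17 over all tested genes. Oleic acid itself called no gene. The comparisons of DHA with vehicle and with oleic acid share the DHA libraries and are given side by side, not as support for each other.

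The calls rested largely on experiments 4 and 5, which also hold the 3 shallowest libraries, all with DHA (DHA+BTC 5, DHA+Veh 5 and DHA+BTC 4). Without those 3 libraries 8 of the 35 genes were called lower against vehicle (BIRC5, CCNA2, CCNB1, CDC20, KIF4A, MKI67, TOP2A and TPX2) and 9 against oleic acid, where the share of all tested genes called lower fell as well, to 2.56% and 2.35%. Without experiment 4 the counts were 7 and 11 (3.47% and 2.72% of all tested genes). Without experiment 5 they were 13 and 14 (3.75% and 3.02%). In experiments 1 to 3 alone only TOP2A was called in either comparison (0.713% and 0.31% of all tested genes). In experiments 1 to 3 alone the difference from vehicle was negative for 34 of 35 genes, with a median of -0.32 beside -0.05 over all tested genes. When every library was thinned to the depth of the shallowest, 17 and 25 genes were called (5.87% and 6.1% of all tested genes called lower). With 1 value per fatty acid and experiment, which does not take the libraries with and without BTC as independent, 12 and 20 genes were called (3.79% and 3.76%). DHA libraries held 1245182 to 4703635 reads, vehicle libraries 2569815 to 9490142 and oleic acid libraries 3100482 to 5338852, and apart from the counts at equal depth the part of depth in the result was not tested. The median number of genes detected was 15485 with DHA, 16582.5 with vehicle and 16837.5 with oleic acid. The median share of reads from ribosomal protein genes was 12.6% with DHA, 10.3% with vehicle and 10.8% with oleic acid. In experiments 4 and 5, where the DHA difference of the members was largest, the DHA libraries had the highest ribosomal share of the 6, at 14.6 and 15.1% in experiment 4 and at 12.9 and 13.5% in experiment 5. The summed level of 6 epithelial markers was 28.4 to 158 CPM with DHA, 10.5 to 76.8 CPM with vehicle and 14.8 to 35.3 CPM with oleic acid. Most of this sum was CDH1, which was higher after DHA (1.28, limma adjusted p = 0.0207), while KRT7 was at -0.04 and KRT19 at 0.04 (not called), GRHL2 was at 0 in every library and EPCAM reached 1.09 CPM at most with DHA. The part of the ribosomal share and of these markers in the result was not tested.

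**Figure D1:**
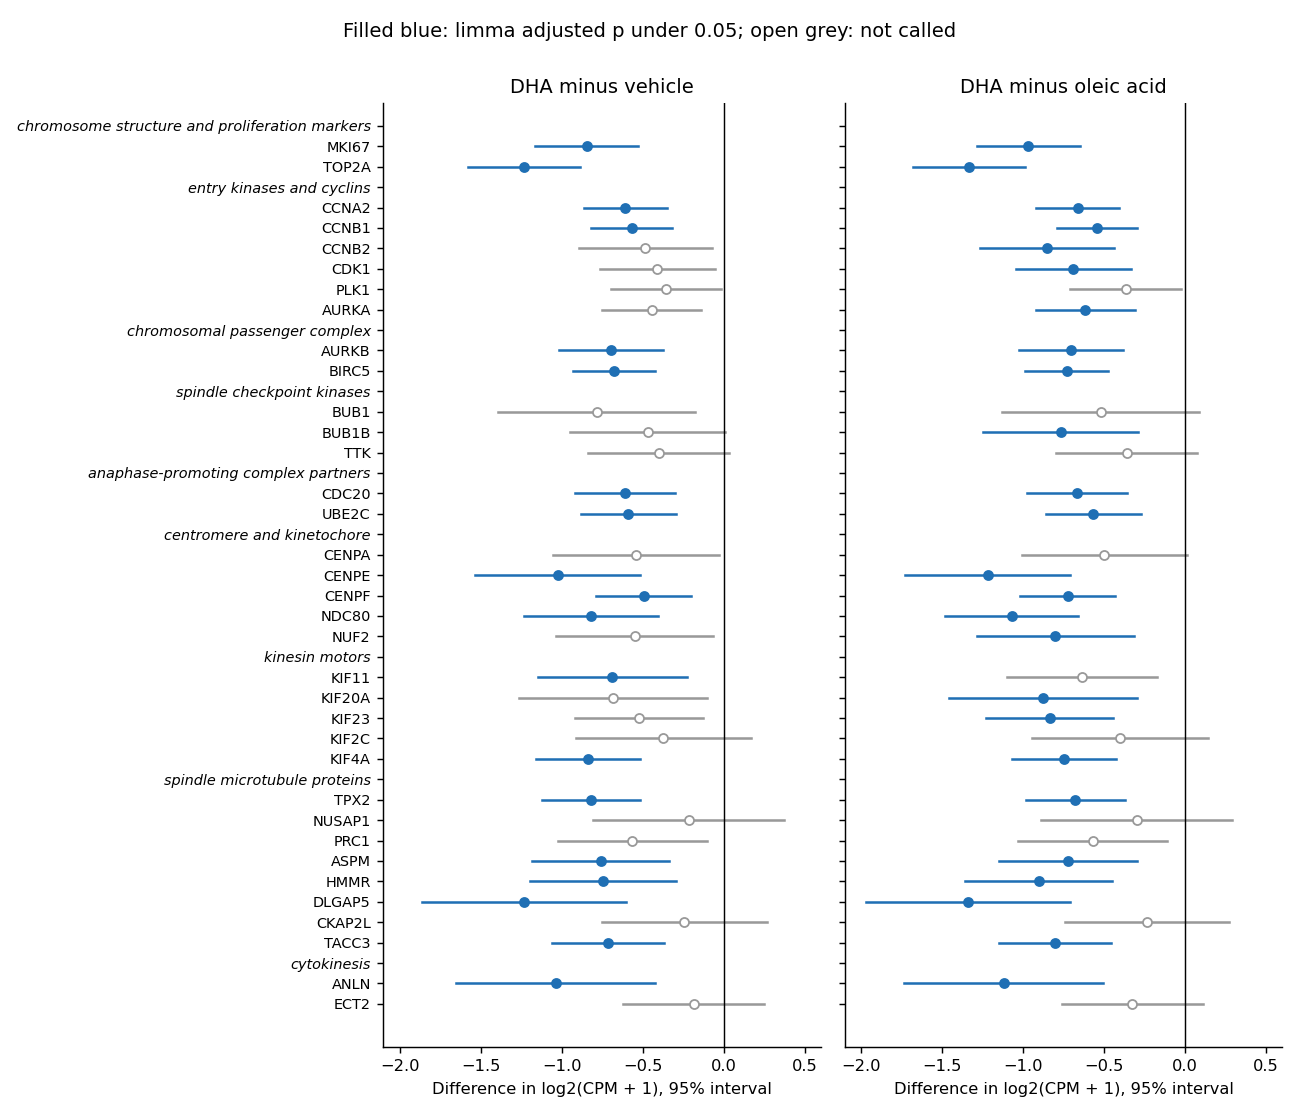
Difference in log2(CPM + 1) between DHA and vehicle (left) and between DHA and oleic acid (right) for the 35 genes, grouped by role; points are limma estimates averaged over BTC, bars their 95% intervals. All 70 points lie below 0; 19 on the left and 25 on the right are filled, which marks an adjusted p under 0.05.

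TOP2A, the topoisomerase that untangles sister chromosomes, and MKI67, which coats mitotic chromosomes and is the standard marker of cycling cells, fell, with a negative difference in 5 of 5 experiments. TOP2A was at 847, 1628, 347, 190 and 262 CPM in Veh+Veh in experiments 1 to 5, and at 1073, 2471, 410, 212 and 273 CPM in Veh+BTC. It was at 983, 2026, 419, 199 and 479 CPM in OLA+Veh and at 950, 2062, 273, 188 and 369 CPM in OLA+BTC. After DHA it was at 541, 1037, 163, 38.1 and 89.7 CPM without BTC and at 651, 1629, 177, 41.9 and 108 CPM with it. In experiments 1, 3, 4 and 5 both DHA libraries lay below the other 4. In experiment 2, DHA+BTC was level with Veh+Veh. The limma difference from vehicle was -1.24 (SE 0.17, 95% interval -1.58 to -0.89, adjusted p = 1.73e-05), a 2.35-fold lower level. Against oleic acid it was -1.33 (SE 0.17, limma adjusted p = 5.31e-06).

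MKI67 was at 193, 402, 54.5, 45.4 and 112 CPM in Veh+Veh and at 292, 349, 52.6, 53.6 and 137 CPM in Veh+BTC, in the order of the experiments. With oleic acid it was at 271, 443, 67.3, 67.4 and 138 CPM and, with BTC, at 243, 342, 55.4, 48.9 and 117 CPM. With DHA it was at 166, 322, 29.7, 15.6 and 40.9 CPM and, with BTC, at 160, 337, 49.2, 15.2 and 51.4 CPM. MKI67 was the one member whose DHA libraries lay below the other 4 in all 5 experiments, although the margin in experiment 2 was small. In experiments 1 to 5 taken singly, 14.1%, 12.9%, 12%, 27.8% and 26% of all tested genes had this order. The share of all tested genes with this order in all 5 was not counted. The MKI67 difference from vehicle was -0.85 (SE 0.16, limma adjusted p = 0.000513) and that from oleic acid -0.97 (SE 0.16, limma adjusted p = 0.00013).

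**Figure D2:**
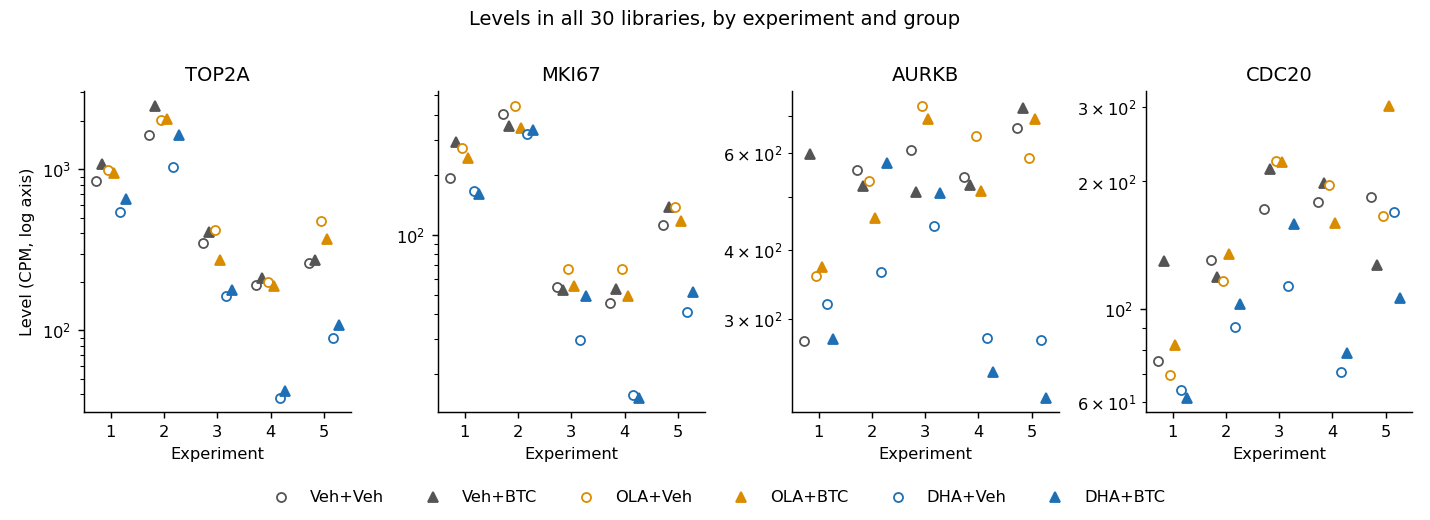
Level in CPM (log axis) of TOP2A, MKI67, AURKB and CDC20 in each of the 30 libraries, by experiment; colours mark the fatty acid, open circles cultures without BTC and filled triangles cultures with it. The blue DHA points lie lowest in most experiments, and TOP2A and MKI67 differ more between experiments than between groups.

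Of the 6 kinases and cyclins that start mitosis, CCNA2 and CCNB1 fell after DHA and the other 4 (CCNB2, CDK1, PLK1 and AURKA) were not called. CCNB1, the main partner of CDK1, ran from 111 to 238 CPM without fatty acid (median 167, n = 10 libraries), from 103 to 254 CPM with oleic acid (median 160) and from 62.8 to 223 CPM with DHA (median 111). Its difference from vehicle was -0.57 (SE 0.12, limma adjusted p = 0.00245), lower in 5 of 5 experiments. CCNA2, which acts in S phase and at mitotic entry, was at 114, 140, 47.5, 31.5 and 57.9 CPM in Veh+Veh and at 61.7, 139, 29.4, 15.6 and 34.4 CPM in DHA+Veh. With BTC it was at 80.1, 136, 50.8, 22.4 and 58.5 CPM without fatty acid and at 61, 126, 23.2, 14.7 and 36.9 CPM with DHA. The DHA libraries lay below their partners everywhere, by the smallest margin in experiment 2, and the difference was -0.61 (SE 0.13, limma adjusted p = 0.00176).

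CDK1 and CCNB2 were called only against oleic acid. CCNB2, the second B-type cyclin, was at 116, 188, 51, 56.9 and 167 CPM in Veh+Veh, at 42.5, 152, 57, 60.5 and 42.1 CPM in Veh+BTC, and at 107, 116, 60.8, 19.6 and 47.4 CPM in DHA+Veh. It was at 109, 152, 75.9, 68.8 and 132 CPM in OLA+Veh, 121, 141, 85.2, 75.8 and 108 CPM in OLA+BTC and 88, 105, 53.2, 27.2 and 34.5 CPM in DHA+BTC. Veh+BTC lay below both DHA libraries in experiment 1 and between them in experiment 5, while both oleic acid libraries lay above them in each. The difference was -0.48 against vehicle (95% interval -0.90 to -0.07, limma adjusted p = 0.123) and -0.86 against oleic acid (95% interval -1.27 to -0.44, adjusted p = 0.00602). CDK1 ran from 39.3 to 220 CPM without fatty acid (median 58.6), from 38.1 to 191 CPM with oleic acid (median 107) and from 13.8 to 199 CPM with DHA (median 54.7). Its difference was -0.41 against vehicle (limma adjusted p = 0.13) and -0.69 against oleic acid (adjusted p = 0.00972). Whether the 2 differences of a gene differ is the comparison of oleic acid with vehicle, in which no member was called. AURKA, the kinase that matures the spindle poles, ran from 80.9 to 336 CPM without fatty acid (median 205), from 131 to 329 CPM with oleic acid (median 215) and from 46.6 to 312 CPM with DHA (median 144). It had a difference of -0.44 from vehicle (limma adjusted p = 0.0517) and of -0.62 from oleic acid (adjusted p = 0.00712). PLK1 was called in neither comparison, at -0.36 (95% interval -0.70 to -0.01, limma adjusted p = 0.175) and -0.37 (adjusted p = 0.152).

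Both genes of the chromosomal passenger complex, which corrects faulty attachments and guides cytokinesis, fell. AURKB, its kinase, was at 274, 559, 607, 542 and 666 CPM in Veh+Veh and at 599, 524, 511, 527 and 724 CPM in Veh+BTC. It was at 320, 365, 443, 278 and 276 CPM in DHA+Veh and at 276, 576, 508, 241 and 216 CPM in DHA+BTC. In experiments 4 and 5 the DHA libraries were far below their partners, and in experiments 1 and 2 the groups overlapped. The difference was -0.69 (SE 0.16, limma adjusted p = 0.00396) from vehicle and -0.70 (SE 0.16, limma adjusted p = 0.0037) from oleic acid.

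BIRC5 (survivin), the subunit that targets AURKB to the centromere, was at 148, 228, 303, 234 and 253 CPM in Veh+Veh and at 109, 300, 323, 236 and 185 CPM in Veh+BTC. After DHA it was at 116, 203, 193, 101 and 126 CPM without BTC and at 120, 201, 181, 115 and 85.9 CPM with it. The DHA libraries lay below all 4 others in every experiment but the first, where Veh+BTC was the lowest of the 6. The difference was -0.68 (SE 0.13, limma adjusted p = 0.000515) from vehicle and -0.73 (SE 0.13, limma adjusted p = 0.000265) from oleic acid. INCENP and CDCA8, the other subunits of the complex and not members of the list of 35, had differences from vehicle of -0.68 (limma adjusted p = 0.00382) and -0.57 (adjusted p = 0.0167).

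The checkpoint kinases did not pass the test against vehicle. BUB1, BUB1B and TTK had differences of -0.78, -0.47 and -0.40 (limma adjusted p = 0.0866, 0.203 and 0.24). BUB1 was at 0 CPM in both DHA libraries of experiment 5, where a count of 0 allows up to 1.95 CPM (DHA+Veh) and 2.41 CPM (DHA+BTC), and at 3.14 and 4.57 CPM in the vehicle libraries of that experiment. TTK, the kinase that starts the checkpoint signal, ran from 6.73 to 61.5 CPM without fatty acid (median 22.5), from 3.83 to 66 CPM with oleic acid (median 29.1) and from 6.24 to 82.9 CPM with DHA (median 12). Its ranges overlapped fully and the difference from oleic acid, -0.36, was not called either (limma adjusted p = 0.282). BUB1B ran from 3.99 to 57.3 CPM, from 7.78 to 49.1 CPM and from 2.6 to 36.2 CPM in the 3 arms, and was called against oleic acid (-0.77, SE 0.23, limma adjusted p = 0.0304), a call that held in 31 of 48 other settings.

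CDC20, the activator of the anaphase-promoting complex, and UBE2C, its ubiquitin-conjugating enzyme, both fell. UBE2C was at 546, 805, 1058, 746 and 712 CPM in Veh+Veh and at 450, 827, 715, 440 and 313 CPM in DHA+Veh. With BTC it was at 541, 894, 770, 790 and 674 CPM without fatty acid and at 438, 742, 662, 374 and 279 CPM with DHA. In experiment 2 the ranges of the arms overlapped, and in the other 4 the DHA libraries were the lowest of the 6. The difference was -0.59 (SE 0.14, limma adjusted p = 0.00693). CDC20 ran from 75.2 to 215 CPM without fatty acid (median 151) and from 61.5 to 170 CPM with DHA (median 96.7), a difference of -0.61 (SE 0.15, limma adjusted p = 0.00804). Of 21 genes for subunits of the complex and for tubulins, 1 was called lower against vehicle (ANAPC5, -0.49, limma adjusted p = 0.0174). Among all tested genes 8.38% were called lower. The median over the 21 was -0.11, beside -0.13 over all tested genes.

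Of the 5 centromere and kinetochore genes, CENPE, CENPF and NDC80 fell against vehicle, NUF2 was called only against oleic acid and CENPA in neither comparison. NDC80, the microtubule-binding protein of the outer kinetochore, was at 129, 169, 30, 21.5 and 33.9 CPM in Veh+Veh and at 69.5, 105, 29.4, 8.47 and 14.9 CPM in DHA+Veh. With BTC it was at 67, 160, 40.5, 22.4 and 33.2 CPM and, after DHA, at 77.6, 105, 32.2, 12.9 and 4.02 CPM. The DHA value was the lower of each pair except with BTC in experiment 1. The difference was -0.82 (SE 0.20, limma adjusted p = 0.00769) from vehicle and -1.07 (SE 0.20, limma adjusted p = 0.000762) from oleic acid. Its partner NUF2 ran from 10.2 to 84.6 CPM without fatty acid (median 17.1), from 10.2 to 77.9 CPM with oleic acid (median 34.5) and from 4.01 to 74.6 CPM with DHA (median 15.4), and was at -0.55 (limma adjusted p = 0.137) and -0.80 (adjusted p = 0.0264).

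CENPF, a large protein of the outer kinetochore, ran from 27.1 to 460 CPM without fatty acid (median 62.8), from 39.5 to 523 CPM with oleic acid (median 77.1) and from 9.36 to 373 CPM with DHA (median 48.9). The arms overlapped because the experiments differed by far more than the fatty acids, and within experiments the difference was negative in 5 of 5 (-0.50, SE 0.14, limma adjusted p = 0.0231). Its call against vehicle held in 33 of 48 other settings and was lost with edgeR, DESeq2 and both other scalings. CENPE, the kinetochore motor, had a difference of -1.02 (SE 0.25, limma adjusted p = 0.00703) and lay between 0.446 and 1.95 CPM in the DHA libraries of experiments 4 and 5, at or under 3 reads in 3 of those 4 libraries, so its difference is imprecise there. CENPA, the histone variant that marks centromeres, was at -0.54 (95% interval -1.05 to -0.03, limma adjusted p = 0.167).

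Of the 5 kinesins, KIF4A, a chromosome-bound motor that also works on the central spindle, and KIF11, the motor that pushes the spindle poles apart, fell against vehicle, KIF11 not against oleic acid (-0.64, limma adjusted p = 0.0626). KIF4A was at 96, 134, 40.5, 28.7 and 76.1 CPM in Veh+Veh and at 63.4, 137, 33.6, 9 and 57.2 CPM in DHA+Veh. With BTC it was at 86.4, 131, 56.7, 36.4 and 76 CPM and, after DHA, at 50.6, 109, 15.2, 11.6 and 32.9 CPM. The DHA value was lower in 9 of the 10 pairs, the exception being experiment 2 without BTC. The difference was -0.84 (SE 0.16, limma adjusted p = 0.000614) from vehicle and -0.75 (SE 0.16, limma adjusted p = 0.00221) from oleic acid. KIF11 ran from 3.81 to 35.8 CPM without fatty acid and from 0.803 to 36.9 CPM with DHA. Its call (-0.69, limma adjusted p = 0.0454) held in 14 of 48 other settings. The KIF11 difference was -0.44, 0.04, -0.57, -0.37 and -2.11 in experiments 1 to 5. In experiment 5 both DHA libraries lay at or under 3 reads (1.95 and 0.803 CPM), so the difference is imprecise there. KIF23 and KIF20A, which build the central spindle, were called only against oleic acid, at -0.84 (limma adjusted p = 0.00475) and -0.88 (adjusted p = 0.0426). The KIF20A call held in 22 of 48 other settings and was lost with edgeR, DESeq2 and both other scalings. KIF23 ran from 9.77 to 98.4 CPM without fatty acid (median 26.6), from 11.2 to 96.9 CPM with oleic acid (median 36.6) and from 3.57 to 72.8 CPM with DHA (median 19.7). KIF2C, which takes microtubules apart, was called in neither (-0.37 and -0.40).

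Among the 8 proteins of spindle microtubules, TPX2, ASPM, HMMR, DLGAP5 and TACC3 fell against vehicle and against oleic acid, and NUSAP1, PRC1 and CKAP2L were called in neither comparison. TPX2, the activator of AURKA, was at 175, 302, 117, 85.5 and 179 CPM in Veh+Veh and at 283, 286, 153, 78.8 and 275 CPM in Veh+BTC. After DHA it was at 130, 321, 61.1, 41.3 and 86.4 CPM without BTC and at 141, 281, 70.2, 49 and 65.9 CPM with it. Outside experiment 2, where the arms overlapped, the DHA libraries lay below all others. The difference was -0.82 (SE 0.15, limma adjusted p = 0.000461) from vehicle and -0.68 (SE 0.15, limma adjusted p = 0.00323) from oleic acid.

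TACC3, a partner of the spindle clathrin complex, ran from 146 to 396 CPM without fatty acid (median 240), from 199.6 to 333 CPM with oleic acid (median 242) and from 85.9 to 326.5 CPM with DHA (median 147). It fell by 0.71 on the log2 scale against vehicle (SE 0.17, limma adjusted p = 0.00575). DLGAP5, which bundles microtubules at kinetochores, lay between 0.891 and 3.71 CPM in the DHA libraries of experiments 4 and 5 and at 95.1 and 89.8 CPM in those of experiment 2. In DHA+BTC 4, DHA+Veh 5 and DHA+BTC 5 DLGAP5 lay under the level of 3 reads (1.34, 1.95 and 2.41 CPM), so its difference is imprecise there. The DLGAP5 difference from vehicle was -1.23 (SE 0.31, limma adjusted p = 0.00846). HMMR, a microtubule-associated protein of the spindle, was at -0.75 from vehicle (limma adjusted p = 0.0259), a call that held in 29 of 48 other settings. HMMR was at 1.34 CPM in DHA+BTC 4, 2.6 CPM in DHA+Veh 5 and 1.61 CPM in DHA+BTC 5, so its difference rests on few reads there. NUSAP1 had a mean of 2.16 CPM over all libraries, near the level of a few reads, and CKAP2L a difference of -0.24 (95% interval -0.75 to 0.26). PRC1, the crosslinker of the central spindle, was at -0.56 (95% interval -1.02 to -0.11, limma adjusted p = 0.104), with a low value in Veh+BTC of experiment 5 that is described below.

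Of the genes of cytokinesis, ANLN, which anchors the contractile ring, fell and ECT2, which acts in the same step, was not called. ANLN was at 67.1, 45.3, 44.4, 11.3 and 14.3 CPM in Veh+Veh and at 22.1, 40.8, 14.5, 2.38 and 9.75 CPM in DHA+Veh. With BTC it was at 16.5, 105, 18.9, 14.3 and 4.36 CPM and, after DHA, at 40.2, 26.7, 4.33, 1.78 and 5.62 CPM. With BTC, DHA was the higher of the pair in experiments 1 and 5. The difference was -1.04 (SE 0.30, 95% interval -1.65 to -0.42, limma adjusted p = 0.0231). ECT2 was at -0.19 (95% interval -0.62 to 0.25, limma adjusted p = 0.645).

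Split by BTC, the median difference over the 35 genes stayed similar, single genes varied more and fewer genes were called. DHA against vehicle called 3 of the 35 genes lower without BTC, TOP2A (-1.24), MKI67 (-0.86) and BIRC5 (-0.68), where 1.54% of all tested genes were called and 0.945% called lower. With BTC it called 8 lower, KIF4A (-1.12), TOP2A (-1.23), TPX2 (-0.97), DLGAP5 (-1.68), BIRC5 (-0.68), MKI67 (-0.83), CCNB1 (-0.63) and AURKB (-0.77), beside 3.55% and 2.46% of all genes. Those 8 calls fell to 0 without the 3 shallowest libraries or with only the groups compared in the fit. Leaving out 1 library gave 2 (without DHA+BTC 5) to 12 (without DHA+BTC 2). The 3 calls without BTC fell to 1 (without the 3 shallowest libraries) and to 0 in experiments 1 to 3. The medians over the 35 genes were -0.62 and -0.63. Against oleic acid, 6 genes were lower without BTC (3.27% of all tested genes called, 2.38% lower) and 7 with BTC (1.72% and 1.12%). The 7 fell to 0 without the 3 shallowest libraries. For these fits with fewer libraries the share of all tested genes called is not given. The counts therefore do not tell whether other genes lost their calls alike. The difference between the DHA responses with and without BTC called no member by limma, edgeR or DESeq2, and no member had an unadjusted p under 0.05.

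The size of the DHA difference varied with the experiment. The median over the 35 genes was -0.33, -0.26, -0.45, -1.19 and -1.03 in experiments 1 to 5, and over all tested genes it was -0.03, -0.04, -0.11, -0.27 and -0.26. The number of members lower after DHA was 27, 29, 30, 35 and 30, where 52.5%, 54.3%, 56.9%, 67.9% and 62.8% of all tested genes were lower. Both DHA libraries lay below the other 4 for 13, 13, 14, 27 and 23 members, against 14.1%, 12.9%, 12%, 27.8% and 26% of all tested genes. In an F test of whether the DHA response differed between experiments, chosen after the data were seen, 3 of the 35 genes were called by limma, DLGAP5 (adjusted p = 0.0127), TOP2A (0.0325) and TACC3 (0.0357), beside 2.07% of all tested genes. TOP2A was lower by -0.68, -0.63, -1.14, -2.30 and -1.43, DLGAP5 differed by -0.71, 0.39, -0.79, -1.76 and -3.30, and TACC3 by -0.58, -0.27, 0.07, -1.45 and -1.34. The DLGAP5 values of experiments 4 and 5 rest on few reads in the DHA libraries and are imprecise. The same test called no gene for oleic acid, with 296 of all genes and none of the 35 at an unadjusted p under 0.05.

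**Figure D3:**
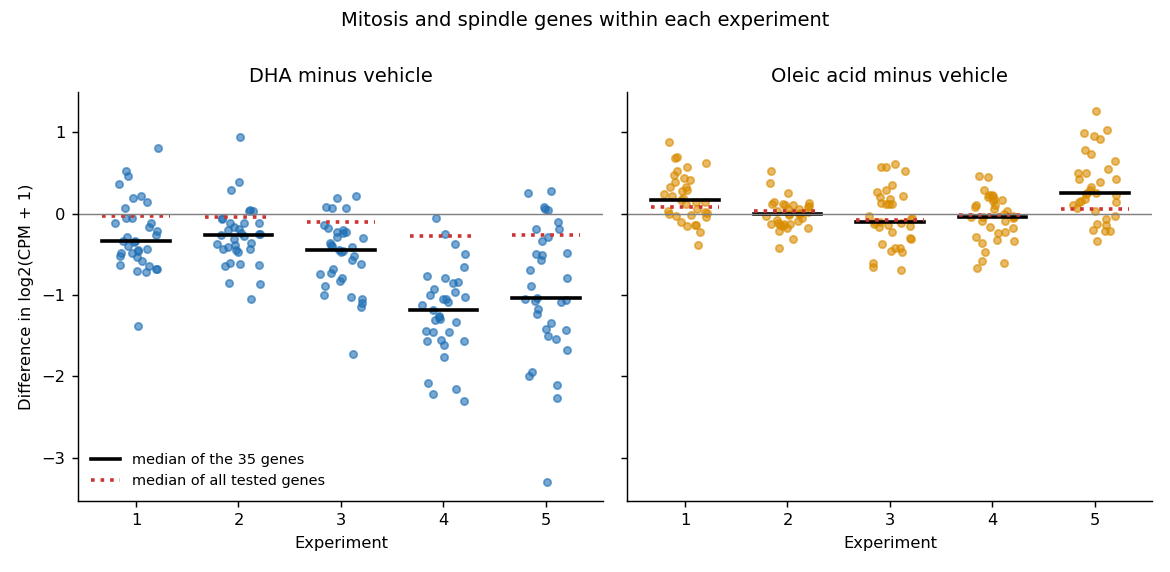
Difference in log2(CPM + 1) from vehicle within each experiment for the 35 genes (points), after DHA (left) and oleic acid (right), with the median of the 35 genes (black line) and of all tested genes (red dotted line). The DHA medians are -0.33, -0.26, -0.45, -1.19 and -1.03; those of oleic acid lie between -0.10 and 0.25.

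None of the 35 genes was called after oleic acid, which does not show that they were unchanged. Averaged over BTC, no gene of the 15137 was called (0%) and 302 had an unadjusted p under 0.05 by limma, none of them a member, and edgeR and DESeq2 called none. The median over the 35 genes was 0.08 beside 0.02 over all tested genes, with fitted values from -0.26 to 0.37 (CCNB2, limma adjusted p above 0.99 as for every member). In experiments 1 to 5 the medians were 0.17, -0.00, -0.10, -0.03 and 0.25. MKI67 had a mean of 169 ± 134 CPM without fatty acid, 179 ± 138 CPM with oleic acid and 119 ± 124 CPM with DHA (SD, n = 10 libraries each), and the SDs reflect mostly the spread between experiments.

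None of the 35 genes was called for BTC at 72 h either, which does not show that they were unchanged. Averaged over the pretreatments no gene was called (0%), 609 of all tested genes and 1 member (PRC1) were under 0.05 unadjusted, and edgeR and DESeq2 called no gene. PRC1 was at -0.47 (limma adjusted p = 0.994). Without fatty acid the median over the 35 genes was -0.09, and the members with the smallest p were CCNB2 (-0.69, limma adjusted p = 0.458) and KIF20A (-0.86, limma adjusted p = 0.484).

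A group of members was low in 2 vehicle libraries with BTC. KIF20A was at 94.8, 90.4, 73.5, 38.2 and 87.6 CPM in Veh+Veh and at 16, 147, 40.8, 64.3 and 15.8 CPM in Veh+BTC, so that Veh+BTC of experiments 1 and 5 lay below all other vehicle libraries while experiments 2 and 4 were higher with BTC. PRC1 was at 127, 129, 56, 42.1 and 156 CPM in Veh+Veh and at 47.9, 170, 72.7, 54.3 and 21.4 CPM in Veh+BTC. NUF2, which was at 70.6 CPM without BTC and at 17.7 CPM with it in experiment 1, had 16.5 and 11 CPM in experiment 5. KIF2C, ANLN, CCNB2 and CENPA were low in both of these Veh+BTC libraries, and CDK1 in that of experiment 1 (52.4 CPM beside 177 CPM), whereas MKI67, AURKB, TPX2 and TOP2A were as high there as in Veh+Veh or higher. In experiment 1, 28 of the 35 genes were lower with BTC (58.8% of all tested genes), with values from -2.50 (KIF20A) to 1.13 (AURKB), and in experiment 5 22 of the 35 were lower (52.5% of all tested genes), from -2.81 (PRC1) to 1.11 (DLGAP5). Once group and experiment were taken out, KIF20A correlated most with KIF2C (r = 0.89), PRC1 (0.83), ANLN (0.80) and CDK1 (0.78), and MKI67 most with AURKB (0.78) and PLK1 (0.75). These r are over 30 libraries, describe a pattern noticed in these data and share the libraries and their depth.

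**Figure D4:**
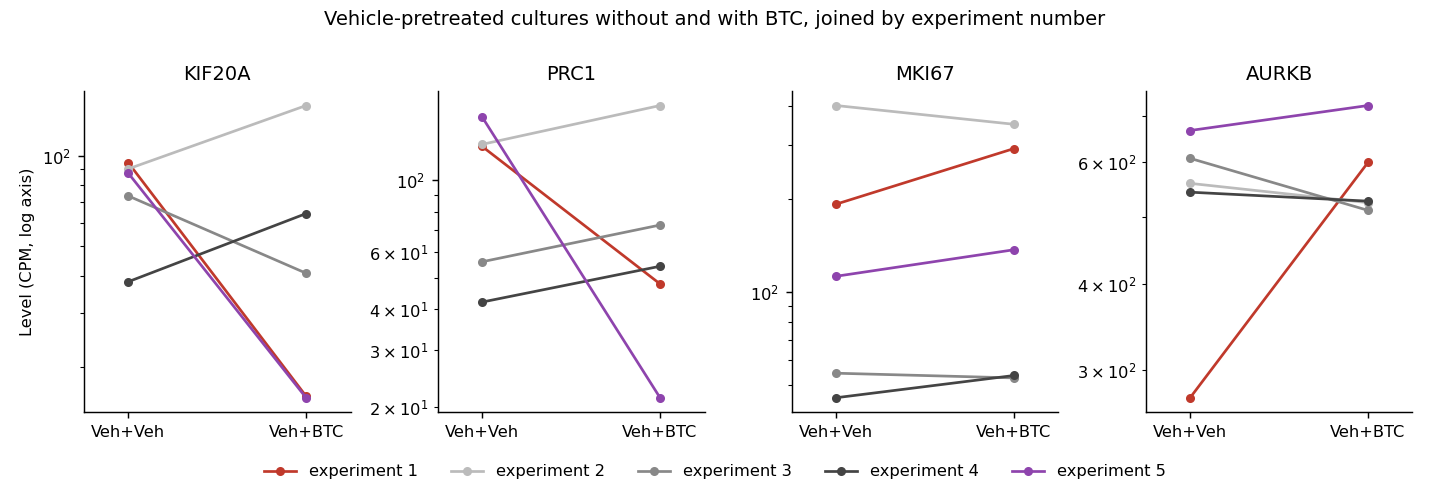
Level in CPM (log axis) of KIF20A, PRC1, MKI67 and AURKB in the vehicle-pretreated cultures without and with BTC; lines join the libraries of 1 experiment. In experiments 1 and 5 KIF20A went from 94.8 to 16 CPM and from 87.6 to 15.8 CPM, while MKI67 and AURKB were higher with BTC in both.

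The experiments differed more than the groups. The F test of the experiment called 34 of the 35 genes by limma (all but CENPA), where 71.4% of all tested genes were called. The ratio of the highest to the lowest experiment mean had a median of 5.6-fold over the 35 genes and 2.23-fold over all tested genes. The mean of the 6 libraries was highest in experiment 2 for 29 members (38.5% of all tested genes) and lowest in experiment 4 for 27 (35.9% of all). CENPE had means of 27.9, 67.9, 10.4, 3.38 and 7.3 CPM in experiments 1 to 5, and CENPF of 220.1, 413, 54.5, 27.6 and 60.8 CPM. All 6 libraries of experiment 2, those with DHA included, lay above all 24 others for 7 members (CENPE, CENPF, ASPM, MKI67, KIF11, CCNA2 and KIF4A), against 0.7% of all tested genes.

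A smaller set did not share this order. CDC20 had means of 80.4, 116, 184, 147 and 176 CPM in experiments 1 to 5 and PLK1 of 131, 156, 181, 188 and 261 CPM, both lowest in experiment 1. AURKB, BIRC5 and UBE2C were also lowest in experiment 1 and highest in experiment 3, at 367 and 582 CPM for AURKB, 133 and 269 CPM for BIRC5 and 507 and 865 CPM for UBE2C. What differed between the experiments is not given in the sources used here. The share of reads from ribosomal protein genes, which had medians of 8.4, 8.39, 12.5, 13.5 and 10.9% in experiments 1 to 5, ran opposite to the order of most members: it was lowest in experiments 1 and 2 and highest in experiment 4. Its part in the result was not tested.

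**Figure D5:**
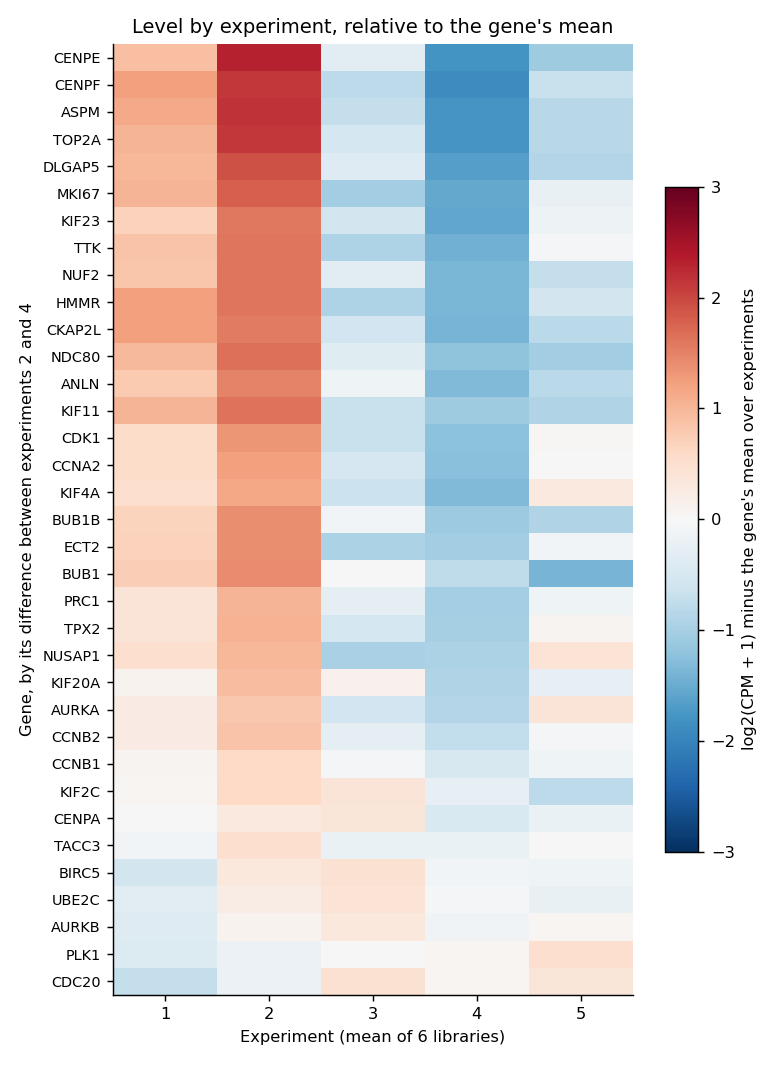
Mean log2(CPM + 1) of each of the 35 genes in each experiment (6 libraries), relative to the gene's mean over the 5 experiments; genes are ordered by the difference between experiments 2 and 4. Red is above and blue below the gene's mean: most genes are highest in experiment 2 and lowest in experiment 4, and the 5 at the bottom (BIRC5, UBE2C, AURKB, PLK1 and CDC20) are lowest in experiment 1.

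The median DHA difference was similar in members with and without a CHR core. The 18 members with a CHR core had a median difference of -0.59 from vehicle and 9 of them were called, and the 12 without one had a median of -0.65 and 7 were called. Those 12 are a mixed group, since CCNB1, CENPE, CENPF, KIF20A and NUSAP1 held a variant of the core, TTTAAA. Core or variant was present in 23 of the 30 matched members, beside 19.15% of the tested genes. Whether the motif is tied to the DHA difference was not tested.

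Other genes of the cell cycle were read from lists. Of 56 further mitotic genes, 18 were lower after DHA than after vehicle and none higher, with a median of -0.55, where 8.38% of all tested genes were called lower with a median of -0.13. Among the 18 were KIF22 (-0.72), PSRC1 (-0.76) and CENPM (-0.86). Against oleic acid 27 of the 56 were lower, beside 8.96% of all tested genes. Of 35 genes of DNA replication, 19 were lower than with vehicle and 16 lower than with oleic acid, with medians of -0.43 and -0.47 beside -0.13 and -0.17 over all tested genes. MCM7, a subunit of the replicative helicase, ran from 265 to 573 CPM without fatty acid and from 242 to 339 CPM with DHA (-0.56, SE 0.10, limma adjusted p = 0.000267), and CLSPN, a mediator of the replication checkpoint, differed by -0.97 (limma adjusted p = 0.000378). 

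Of 14 tested regulators of mitotic genes, MYBL2 (-0.64, limma adjusted p = 0.00639), RBBP4 (-0.64, adjusted p = 0.00131) and RBL2 (-0.71, adjusted p = 0.0388) were lower against vehicle. Among all tested genes 8.38% were called lower. MYBL2, the subunit that turns the MuvB complex into an activator, ran from 290 to 1197 CPM without fatty acid and from 194 to 610 CPM with DHA. FOXM1, the main activator of late cell cycle genes, was at -0.43 (95% interval -0.86 to -0.00, limma adjusted p = 0.193) against vehicle and -0.61 (adjusted p = 0.0531) against oleic acid. Its DHA libraries were at 284, 183, 270, 176 and 63.7 CPM without BTC and at 346, 196, 368, 193 and 60.2 CPM with it, below its vehicle libraries in experiments 2, 4 and 5 and above them in experiment 1, and its DHA response differed between experiments (limma F test, adjusted p = 0.0266).

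Among 12 genes of cell cycle arrest, CDKN1A, which encodes the cyclin-dependent kinase inhibitor p21, rose and CDKN2C, which encodes p18, fell. Against vehicle, 352 of the 15137 tested genes were called higher and 8.38% were called lower. The single lower call among the 12 is near the latter share. CDKN1A was at 215, 70.9, 184, 377 and 160 CPM in Veh+Veh and at 410, 57.1, 116, 398 and 214 CPM in Veh+BTC. With oleic acid it was at 208, 59.5, 109, 336 and 162 CPM and, with BTC, at 227, 104, 91.8, 331 and 154 CPM. After DHA it was at 357, 104, 342, 726 and 322 CPM and, with BTC, at 341, 104, 375, 635 and 390 CPM. The DHA libraries lay above all others of the same experiment in experiments 3, 4 and 5. In experiment 2 they were level with OLA+BTC, and in experiment 1 they lay below Veh+BTC. The difference was 0.79 (SE 0.15, 95% interval 0.48 to 1.10, limma adjusted p = 0.000886) from vehicle and 1.02 (SE 0.15, limma adjusted p = 5.07e-05) from oleic acid, higher in 5 of 5 experiments. Across experiments CDKN1A was lowest in experiment 2, where most mitotic genes were highest, and highest in experiment 4, where they were lowest. CDKN2C differed by -0.96 from vehicle (SE 0.18, limma adjusted p = 0.000559). The other 10 genes, RB1 (-0.32) and CDKN1B (-0.40) among them, were not called against vehicle.

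The label was checked against cell type markers. Of 13 stellate markers 12 passed the filter (all but DES, desmin), with a summed level of 2239 to 4744 CPM without fatty acid, 1879 to 4475 CPM with oleic acid and 2308 to 4082 CPM with DHA. None of 6 hepatocyte markers passed it, and their sum reached 5.25 CPM at most in a library. Endothelial markers summed to 0.591 to 9.69 CPM with vehicle, 2.48 to 47 CPM with oleic acid and 1.78 to 10.8 CPM with DHA. Leukocyte markers summed to 11.3 to 53.5, 14.7 to 61.8 and 8.48 to 53.9 CPM in the same order. TTR and CD3E were at 0 in every library. Read totals ran from 1245182 to 9490142 with a median of 3683035, so that a count of 0 allows up to 0.316 to 2.41 CPM. Such limits cover counting error only, since reads without molecular identifiers are not independent molecules.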

How the data were processed

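RNA from 30 LX2 cultures was profiled with a QuantSeq 3′ tag kit, per the labels' protocols, so levels do not scale with transcript length. The deposited values are CPM, which the authors scaled to a sum of 1000000 per library. The submitters' processing notes name STAR 2.5.3a and HTSeq 0.6.0. Build, annotation and strand setting are not given in the sources used here; overlapping and antisense genes can share reads. Ensembl IDs without their version were named from a symbol table (61398 of 61597, 99.7%).

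limma 3.58.1 (R 4.3.3) with a mean trend was fitted to log2(CPM + 1) for 15137 genes (5 or more libraries reaching 1 CPM), with group and experiment as terms and all 30 libraries. Two-sided p-values received the Benjamini-Hochberg adjustment over all tested genes, and genes were called at an adjusted p under 0.05. Differences and folds are on that scale and understate changes of low genes. Averaged comparisons treat both libraries of a pretreatment in 1 experiment (BTC absent and present) as independent, which can make p too small. The experiment number in the labels was used as the pairing: for all 75 library pairs from 1 experiment, deviations from the group mean correlated at 0.119 to 0.743 (median 0.507). For the 360 pairs from different experiments the range was -0.743 to 0.696 (median -0.199), so the ranges overlap. CPM steps gave whole reads, within 0.01 read, for 100% of values, and edgeR 4.0.16 and DESeq2 1.42.0 were run on them as alternatives. Other alternatives changed the pseudocount, filter, scaling, depth, block and libraries. The fit was tested on simulated data.

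All members may be named. Full values are given for MKI67, TOP2A, the member with the highest mean of each role and the 5 with the smallest p of each averaged comparison. Other lists name up to 4 genes, and regulators and arrest genes freely. INCENP and CDCA8 were named beside AURKB after their values were seen, as were members described for their pattern. The members and lists were chosen with earlier results of these data known. Promoters are from RefSeq (GRCh38.p14).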

Additional observations from a re-analysis of the deposited data

Results flagged for a closer look

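Within groups of 5, 19 of 210 sets of member values held a library whose gap to the rest was large for the range of its group. Chance flags about 1 in 20 where values are independent and normally spread. The experiment was not taken out here and most members were highest in experiment 2, so that rate does not hold for these values. Of the 19, 11 were Veh+BTC 2: CCNB2 at 152 CPM, CDK1 at 219.5, BUB1 at 25.3, BUB1B at 57.3, CENPE at 56.6, NUF2 at 84.6, KIF23 at 98.4, ASPM at 142, CKAP2L at 126, ANLN at 105 and ECT2 at 45 CPM, all above the other 4. In OLA+BTC 2 ANLN was at 87.4 CPM. In DHA+Veh 2 CENPE was at 61.7 and NUSAP1 at 9.76 CPM, and in DHA+BTC 2 TTK was at 66.1 and DLGAP5 at 89.8 CPM, all high. PLK1 was high in DHA+BTC 3, at 236 CPM, and TACC3 in OLA+BTC 5, at 329 CPM. CENPA was low in DHA+BTC 4, at 3.12 CPM. Experiment 2 held 16 of the 19.

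The DHA response differed between experiments in the F test for DLGAP5 (limma adjusted p = 0.0127), TOP2A (0.0325) and TACC3 (0.0357). Of the 35 genes, 17 had an unadjusted p under 0.05 in that test, beside 2836 of all 15137 tested genes.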

How the results depend on the processing

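DHA against vehicle and DHA against oleic acid called 19 and 25 members. Leaving the experiment out of the fit (no pairing) called 0 in each, and 0 in each of their comparisons without and with BTC. Without the 3 shallowest libraries the counts were 8 and 9, in experiments 1 to 3 only 1 and 1, and averaged within experiment 12 and 20. Leaving out 1 experiment gave 7 (without experiment 4) to 21 and 11 to 23, and leaving out 1 library 16 to 24 and 21 to 27. Leaving out 1 experiment or library gave 7 to 24 and 11 to 27 in all. edgeR called 13 and 20, DESeq2 16 and 24, median-of-ratios scaling 15 and 23 and quantile normalization 16 and 23. The share of all tested genes called with these methods is not given here. These counts alone do not tell whether the members moved more than other genes. Scaling moved the median of all genes for DHA against vehicle from -0.13 to -0.04 and -0.00, and that of the members from -0.61 to -0.49 and -0.51, so relative to all genes the members stayed lower.

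DHA against vehicle without BTC called 3, and 1 with no filter, median-of-ratios scaling, edgeR, equal depth or without the 3 shallowest libraries, 0 in experiments 1 to 3, and 0 to 5 leaving out 1 experiment or library. With BTC it called 8, and 3 with edgeR, 5 with median-of-ratios scaling, 4 without the filter, 0 with only the groups compared, without the shallowest libraries or in experiments 1 to 3, and 1 to 12 leaving one out. DHA against oleic acid without BTC called 6, and 3 with only the groups compared or at equal depth, 0 in experiments 1 to 3, and 2 to 9 leaving one out. With BTC it called 7, and 2 with median-of-ratios scaling, 4 with quantile normalization, 1 with edgeR, 3 at equal depth, 0 with no filter, only the groups compared, without the shallowest libraries or in experiments 1 to 3, and 0 to 16 leaving one out. The share of all tested genes called is not given for these settings, so the counts do not tell whether other genes moved alike. The cause of these moves was not tested. Over the 44 called differences of single members, 1833 of 2112 alternative values kept the call, 279 lost it and 0 reversed. Of the 48 settings behind each difference, 35 left out 1 experiment or 1 library and so reused most of the data. The 44 were also taken because they were called, so a high kept share is partly built in. The same holds for the counts out of 48 settings given above. Equal depth, experiments 1 to 3 and the F test were added after the data were seen.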
